A study of Mus musculus with 12 samples.

Results

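The genes described here are 9 genes of retinoid handling, out of 14188 protein-coding genes measured in the livers of 12 mice with CCl4-induced hepatic fibrosis. Their products store, oxidize, reduce, break down or read retinoids (vitamin A and its derivatives). The exception is Aldh1a7, which is included as a close copy of Aldh1a1, with no retinoid activity assumed. The 9 genes were chosen by name, with earlier results of these data known, as Lrat, Retsat, Rdh7, Rdh11, Dhrs3, Aldh1a1, Aldh1a7, Cyp26a1 and Rarb. All 9 were listed, with 17 of the 29883 listed transcripts, and each had a mean of at least 1 FPKM (sequenced fragments scaled to transcript length and to the size of the library), so none was lost to a filter. The level of a gene is the sum of the FPKM of its listed transcripts.

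Both groups of 6 mice received CCl4, a solvent that injures hepatocytes, as 10 µl/g of a mixture with corn oil by 2 intraperitoneal injections per week. The PZH group was also given 0.25 mg/g of PZH (Pien Tze Huang, a herbal remedy of traditional Chinese medicine) into the stomach every day, and the control group was given water in the same way. The mice were 6 weeks old at the start and were killed in week 8. The strain is written C57BL/8 in the sample labels, whereas the study's methods describe male C57BL/6J mice. Mice that received neither agent were not analysed here, so a value can be set against the injured control liver only.

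The liver holds most of the vitamin A of the body. Hepatocytes take up retinol and release it bound to retinol-binding protein, and hepatic stellate cells keep it as retinyl esters in lipid droplets, which they lose when they turn into myofibroblasts. Retinol is oxidized reversibly to retinal by alcohol dehydrogenases and short-chain dehydrogenases, and retinal is oxidized irreversibly to retinoic acid by aldehyde dehydrogenases. Retinoic acid binds nuclear receptors, which sit on DNA with a retinoid X receptor at paired copies of a short element, and it is cleared by cytochromes of the CYP26 family, whose gene Cyp26a1 is itself a classical target of those receptors.

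The promoters of Cyp26a1 and Rarb are shown because each holds such a paired element, as defined below. No window of the other genes held it, and whether those genes are targets of the receptors was not examined. In the RefSeq sequence (GRCm38.p6) the 250 bases before the start site are printed from 5′ to 3′ on the strand of the gene, in lower case, with the paired element in capitals. The element searched was AGGTCA, with G also allowed for its leading A, and T also allowed for the G before its TCA, followed after 5 bases by another copy of the same form (a direct repeat with a spacing of 5, DR5), on either strand.
Cyp26a1, chr19:37697558-37697807, + strand: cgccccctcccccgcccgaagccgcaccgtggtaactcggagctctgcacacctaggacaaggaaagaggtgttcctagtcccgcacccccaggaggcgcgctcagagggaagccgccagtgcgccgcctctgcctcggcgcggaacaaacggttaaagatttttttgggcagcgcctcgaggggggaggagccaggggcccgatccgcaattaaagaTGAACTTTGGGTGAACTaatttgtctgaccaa
Rarb, chr14:16575477-16575726, - strand: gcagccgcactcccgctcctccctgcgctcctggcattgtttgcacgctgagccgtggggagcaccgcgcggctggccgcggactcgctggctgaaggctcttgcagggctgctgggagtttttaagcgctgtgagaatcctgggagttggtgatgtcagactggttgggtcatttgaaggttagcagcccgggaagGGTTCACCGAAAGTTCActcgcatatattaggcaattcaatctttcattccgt
The element lay 32 to 16 bases before the start site of Cyp26a1, on the opposite strand, and 53 to 37 bases before that of Rarb, on the same strand. Over all RefSeq promoter windows (250 bases before to 50 bases after a start site) 32 of 32851, or 0.0974%, held it. The same search with a spacing of 1 (0.222% of windows) or 2 bases (0.268%) found no match in the windows of the 9 genes. A single copy, which every paired element contains, was present in 43.7% of all windows. It was also present in at least 1 window of 7 of the 9 genes. Dhrs3, Rdh7, Rdh11 and Aldh1a1 have several windows each, so this count of genes cannot be set against the share of windows. All of these are matches of letters and not measured binding sites.

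The promoters of Aldh1a1 and Aldh1a7 are shown because these neighbouring genes are close copies. Capitals mark their longest identical run, of 65 bases, which lay 94 to 30 bases before the start site in both.
Aldh1a1, chr19:20601718-20601967, + strand: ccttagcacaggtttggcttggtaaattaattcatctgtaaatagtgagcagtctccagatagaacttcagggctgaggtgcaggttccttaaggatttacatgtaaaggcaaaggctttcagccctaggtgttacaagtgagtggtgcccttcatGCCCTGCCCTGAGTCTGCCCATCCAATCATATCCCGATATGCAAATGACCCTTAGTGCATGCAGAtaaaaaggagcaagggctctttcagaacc
Aldh1a7, chr19:20727557-20727806, - strand: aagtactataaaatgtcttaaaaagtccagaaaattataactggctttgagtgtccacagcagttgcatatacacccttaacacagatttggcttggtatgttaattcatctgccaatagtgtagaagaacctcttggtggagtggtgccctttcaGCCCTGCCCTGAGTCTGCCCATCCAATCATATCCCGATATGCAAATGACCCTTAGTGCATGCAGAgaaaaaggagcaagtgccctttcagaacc
Over 282 aligned bases of the whole windows, 79.4% were identical. The genes lie 49488 bases apart and point towards each other. Their leading transcripts were 89.8% identical over 2048 aligned bases, but shared no stretch as long as a read of 150 bases.

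The level of each gene in each mouse was compared between the groups on the log2(FPKM + 1) scale with limma, and p-values were adjusted over all 14188 genes (Benjamini-Hochberg). A difference is given as PZH minus control with its standard error (SE), and a gene was called at an adjusted p under 0.05. On this scale a difference understates the change of a gene of low level. Of the 9 genes, 3 were higher in the PZH group (Rdh7, Dhrs3 and Aldh1a7), 1 was lower (Retsat) and 5 did not pass. The differences of the called genes ran from −0.74 to 0.85, so none reached 2-fold. The share called, 44.4%, was close to the 44.8% of all genes that were called, and is no result about these genes. The direction of the calls was 3 higher of 9, where 12.7% of all genes were higher and 32.1% lower.

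**Figure D1:**
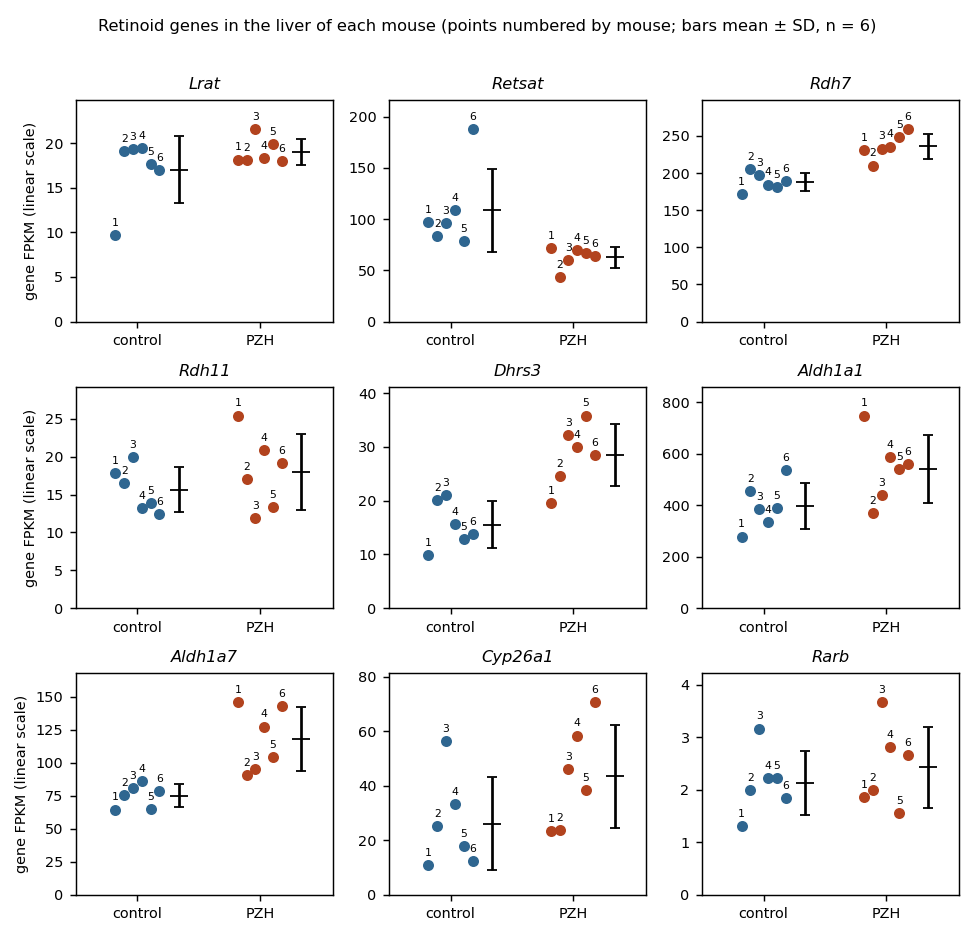
Gene level in FPKM (linear scale) of the 9 retinoid genes in each mouse, with points numbered by mouse and bars for mean ± SD of the 6 mice of a group. The groups do not overlap for Retsat, Rdh7 and Aldh1a7, 5 of 6 PZH mice lie above all control mice for Dhrs3, and control mouse 1 (Lrat, 9.67) and control mouse 6 (Retsat, 188) stand away from their groups.

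Lrat (chr3:82892579-82903973, - strand, GRCm38) encodes the acyltransferase that esterifies retinol for storage, and in the liver it is a defining gene of stellate cells. It measured 17.95 FPKM in the lowest PZH mouse, 18.3 in the median and 21.6 in the highest, and 9.67, 18.4 and 19.5 in the control group. The PZH values were tightly placed, 5 of the 6 control values lay among or just below them, and control mouse 1 lay far below all others. The difference was 0.18 (SE 0.14, limma adjusted p = 0.325), with a 95% confidence interval of −0.12 to 0.49. Without control mouse 1 the difference was 0.04 (limma adjusted p = 0.701), and leaving out other mice one at a time kept it between 0.15 and 0.22.

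Retsat (chr6:72598475-72608425, + strand) encodes the saturase that reduces a double bond of retinol, which yields dihydroretinol. It measured 43.4 FPKM in the lowest PZH mouse, 65.5 in the median and 71.7 in the highest, and 78.2, 96.7 and 188 in the control group. All 6 PZH mice lay below all 6 control mice, and control mouse 6 was far above the rest. The difference was −0.74 (SE 0.19, limma adjusted p = 0.00735, lower in 6 of 6 PZH mice than in any control mouse). Without control mouse 6 it was −0.57 (limma adjusted p = 0.00481). Of the exon bases of Retsat 9.92% are also covered by an annotated gene on the other strand.

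Rdh7 (chr10:127884028-127888817, - strand) encodes a short-chain dehydrogenase that oxidizes retinol. It measured 210 FPKM in the lowest PZH mouse, 235 in the median and 260 in the highest, and 171, 187 and 205 in the control group. The groups did not overlap, although the ranges came within a few FPKM of each other. The difference was small and steady at 0.33 (SE 0.07, limma adjusted p = 0.00152), and stayed between 0.30 and 0.36 when any 1 mouse was left out. Of the 150-base windows of its transcript 0.981% were shared with Rdh18-ps, so few reads could have been assigned to either.

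Rdh11 (chr12:79174337-79192293, - strand) and Dhrs3 (chr4:144892827-144928209, + strand) encode short-chain enzymes that turn retinal back to retinol. Rdh11 measured 11.9 FPKM in the lowest PZH mouse, 18.1 in the median and 25.4 in the highest, and 12.4, 15.2 and 19.96 in the control group. The ranges overlapped almost wholly, and the difference of 0.17 (SE 0.17, limma adjusted p = 0.466) had a confidence interval of −0.21 to 0.54. Dhrs3 measured 19.6 FPKM in the lowest PZH mouse, 29.3 in the median and 35.9 in the highest, and 9.81, 14.7 and 21.2 in the control group. Only PZH mouse 1 lay within the control range. The difference of 0.85 (SE 0.18, limma adjusted p = 0.00223) lay between 0.74 and 0.95 when any 1 mouse was left out.

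Aldh1a1 (chr19:20492715-20643465, + strand) encodes the aldehyde dehydrogenase that oxidizes retinal to retinoic acid in hepatocytes. It measured 368 FPKM in the lowest PZH mouse, 550 in the median and 748 in the highest, and 278, 386 and 538 in the control group. The difference was 0.44 (SE 0.18, limma adjusted p = 0.0600), and 5 of 6 PZH mice lay above the control median. It missed the threshold in all 12 mice but passed it without PZH mouse 2 (0.55, limma adjusted p = 0.0195) or without control mouse 6 (0.54, limma adjusted p = 0.0270), the lowest and the highest mouse of their groups.

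Aldh1a7 (chr19:20692953-20727562, - strand) encodes a close relative of that enzyme. It measured 90.8 FPKM in the lowest PZH mouse, 116 in the median and 146 in the highest, and 64.7, 77.2 and 85.9 in the control group. The groups did not overlap, and the difference was 0.63 (SE 0.13, limma adjusted p = 0.00183). The difference between the 2 genes was tested directly on the ratio of Aldh1a7 to Aldh1a1, which was 19.5% to 25.6% in the PZH mice against 14.6% to 25.6% in the control mice. The log2 ratio was 0.19 higher in the PZH group and did not pass (exact permutation test over 924 labellings of the mice, two-sided p = 0.229), so the call of one gene and not of the other does not show that they differed in response.

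Cyp26a1 (chr19:37697798-37701536, + strand), whose enzyme degrades retinoic acid, had the widest spread of the 9 genes relative to its level. It measured 23.5 FPKM in the lowest PZH mouse, 42.3 in the median and 70.7 in the highest, and 11.0, 21.5 and 56.6 in the control group. All 6 PZH mice lay above the control median, yet control mouse 3 lay above 4 of them. The difference of 0.82 (SE 0.39, limma adjusted p = 0.101) had a wide confidence interval of −0.01 to 1.66. Without control mouse 3 it was 1.09 (limma adjusted p = 0.0219).

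Rarb (chr14:16430839-16819156, - strand) encodes retinoic acid receptor beta. It was the lowest of the 9 genes, at 1.55 FPKM in the lowest PZH mouse, 2.33 in the median and 3.67 in the highest, and at 1.32, 2.102 and 3.16 in the control group. The groups overlapped almost wholly, with a difference of 0.13 (SE 0.16, limma adjusted p = 0.549) and a confidence interval of −0.21 to 0.47. Of the exon bases of its listed transcripts 52.9% are shared with exons of Top2b, a DNA topoisomerase gene on the other strand, which measured 6.37 to 7.97 FPKM over the PZH mice against 6.51 to 7.22 over the control mice. The libraries were strand-specific, but whether strand was used in the assembly is not given in the sources used here, and without strand the reads of the 2 genes could not be told apart there.

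**Figure D2:**
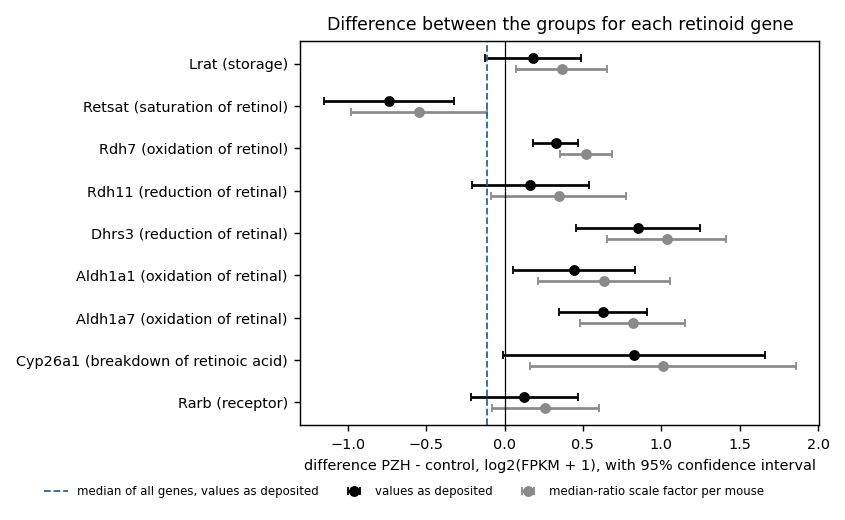
Difference between the groups (PZH minus control, log2(FPKM + 1)) of each retinoid gene with its 95% confidence interval, from the values as deposited (black) and after each mouse was divided by its median-ratio factor (grey), n = 6 mice per group. The dashed line is the median of all 14188 genes at −0.11, and every grey point lies to the right of its black point, so scaling raised all 9 differences. The role beside Aldh1a7 is that of Aldh1a1, of which it is a close copy.

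The scale of the values bears on these calls, since the difference of the median gene was −0.11 in the values as deposited. The median of the 9 retinoid genes was 0.33. After median-ratio scaling, in which each mouse is divided by its median ratio to the geometric mean of the mice, the medians were −0.001 for all genes and 0.52 for the 9. On that scale 19.8% of all genes were higher and 19.3% lower, and of the retinoid genes 5 were higher and 1 lower. Lrat (0.36, limma adjusted p = 0.0453) and Aldh1a1 (0.64, limma adjusted p = 0.0207) passed there, and Retsat was lower by a narrower margin (−0.55, limma adjusted p = 0.0462). Dhrs3 (1.03) and Cyp26a1 (1.01, limma adjusted p = 0.0572) reached 2-fold on that scale with an unadjusted P under 0.05, a criterion that 3.94% of all genes met there. As deposited, 4.02% of all genes and none of the 9 met it.

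The share of genes whose groups did not overlap was 24.3% over all genes, and 3 of the 9 retinoid genes were among them. The mice also differed from each other across genes. Control mouse 1 was the lowest of its group at 7 of the 9 genes, and PZH mouse 2 the lowest of its group at 4. PZH mouse 1 and control mouse 3 were each the highest of their group at 4.

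FPKM is a level per length, so the 9 genes can be ordered. In the control group the order of the means was Aldh1a1, Rdh7, Retsat, Aldh1a7, Cyp26a1, Lrat, Rdh11, Dhrs3 and Rarb. Aldh1a1 exceeded Rdh7, Aldh1a7 exceeded Cyp26a1, and Dhrs3 exceeded Rarb in all 12 mice, with ranges that did not meet in either group. Rdh7 exceeded Retsat in all 12 mice and Cyp26a1 exceeded Lrat in 11, but the ranges of both pairs met in the control group. Neither Lrat and Rdh11 nor Rdh11 and Dhrs3 were apart beyond their spread. A change of order was seen between Retsat and Aldh1a7, since Retsat was the higher of the pair in 6 of 6 control mice and in 0 of 6 PZH mice.

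At the level of transcripts, 6 of 17 passed the same test over all transcripts, with 4 of these higher under PZH and 2 lower. This is 35.3%, where 19.7% of all transcripts passed. The higher transcripts were the only listed ones of Rdh7 and Aldh1a7 and a pair from Dhrs3. ENSMUST00000154208, the leading transcript of Dhrs3, had 6 exons and a length of 2337 bases, and measured 13.8, 19.8 and 26.7 FPKM in the lowest, median and highest PZH mouse against 6.69, 10.3 and 14.8 in the control group (0.88, SE 0.19, limma adjusted p = 0.00581). ENSMUST00000142808, which ends earlier in the gene, measured 5.095, 7.26 and 8.41 against 2.30, 3.19 and 5.81 FPKM (0.81, SE 0.18, limma adjusted p = 0.00863). These transcripts carried nearly all of the level of Dhrs3 and differed by like amounts.

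**Figure D3:**
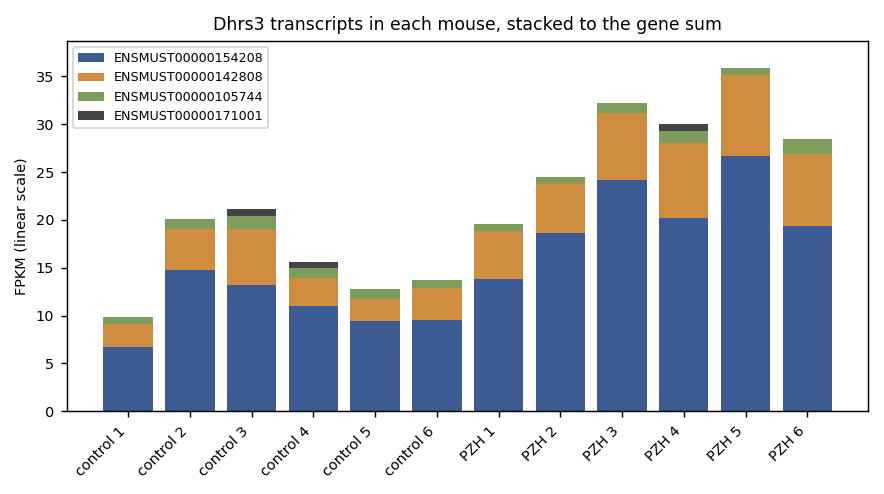
FPKM (linear scale) of the 4 listed transcripts of Dhrs3 in each of the 12 mice, stacked so that the height of a bar is the level of the gene. The leading transcript (blue) made up 62.5% to 76.1% of the bar in every mouse, and 5 of 6 PZH bars stand above all control bars, while for the second transcript (orange) alone 4 of 6 PZH mice exceed all control mice.

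The remaining transcripts of Dhrs3 were minor. ENSMUST00000105744 measured 1.01 ± 0.38 FPKM (SD, n = 6) in the PZH group against 1.001 ± 0.23 in the control group, and ENSMUST00000171001 was listed at 0 in 9 of 12 mice. Of Retsat, the leading ENSMUST00000070597 measured 61.8 ± 10.1 FPKM (SD, n = 6) in the PZH group against 106.5 ± 40.0 in the control group (−0.73, SE 0.20, limma adjusted p = 0.0233). The short ENSMUST00000129071, with 2 exons near the end of the gene, measured 0.973 ± 0.665 and 2.28 ± 0.738 FPKM (−0.77, SE 0.23, limma adjusted p = 0.0321). Both Retsat transcripts missed the threshold after median-ratio scaling (limma adjusted p = 0.107 and 0.0733), and the short one also when any of 6 mice was left out (PZH mice 1, 2 and 3 and control mice 2, 4 and 6).

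The other genes with several transcripts had 1 dominant transcript. ENSMUST00000087638 held 98.6% to 99.4% of the level of Aldh1a1, beside ENSMUST00000225337 and ENSMUST00000225313 at up to 5.05 and 3.71 FPKM. ENSMUST00000161204 held 96.3% to 99.9% of Rdh11, beside ENSMUST00000085254 at up to 0.746 FPKM. ENSMUST00000063750 held 82.6% to 100% of Rarb, beside ENSMUST00000225921 at up to 0.550 FPKM. The share of the leading transcript was compared between the groups for the 5 genes with several listed transcripts with an exact permutation test of all 924 labellings, two-sided, which cannot go below p = 0.00216. None passed, with exact p from 0.182 for Aldh1a1 to 0.448 for Rdh11 (adjusted p = 0.448 for each). For Dhrs3 the share was 71.9% ± 3.8 (SD, n = 6) in the PZH group against 69.5% ± 4.0 in the control group (exact p = 0.318).

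The levels of the 9 genes were also compared with each other from mouse to mouse, after each group was centred on its mean. Of the 36 pairs 28 had a correlation above 0, with a median r of 0.28 over the 12 mice. The highest was that of Dhrs3 and Cyp26a1, with Pearson r = 0.76 (permutation p = 0.00937, adjusted p = 0.112) and Spearman rho = 0.71 (permutation p = 0.0224, adjusted p = 0.18). It was 0.62 within the PZH group and 0.84 within the control group, and 0.63 without the 2 mice farthest from the median of Dhrs3. Cyp26a1 and Rarb, the genes with a paired element in the printed promoters, had r = 0.74 (permutation p = 0.00868, adjusted p = 0.112) and rho = 0.80 (permutation p = 0.00203, adjusted p = 0.0731), and r was 0.55 without the 2 farthest mice. Lrat and Dhrs3 had r = 0.72 (permutation p = 0.00192, adjusted p = 0.0691) and rho = 0.68 (permutation p = 0.0112, adjusted p = 0.18), and r was 0.70 without the 2 farthest mice. None of the 36 pairs passed after adjustment, and 8 had an unadjusted p under 0.05 for r and 7 for rho (100000 permutations of the mice within each group). Genes of 1 mouse share a library, so such correlations also hold what is common to a library.

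**Figure D4:**
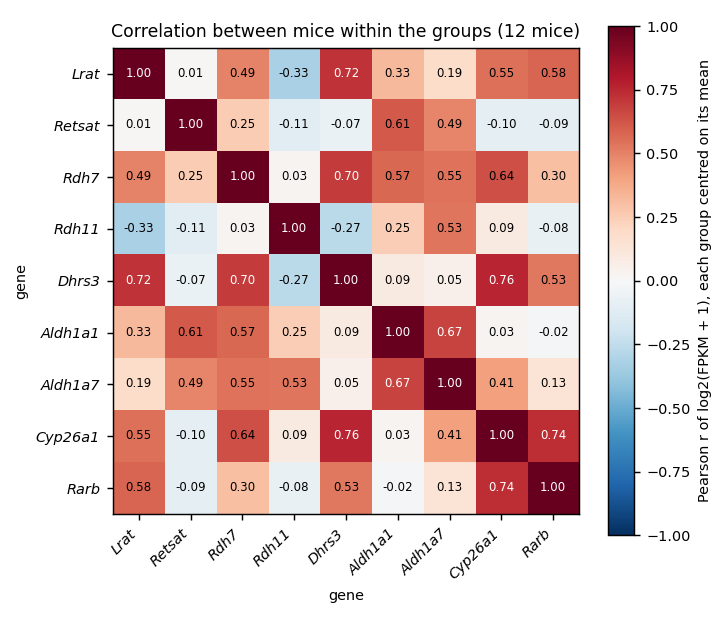
Pearson r of log2(FPKM + 1) between the retinoid genes over 12 mice, with each group centred on its mean (red above 0, blue below 0). Dhrs3, Cyp26a1, Rdh7, Lrat and Rarb form a block of positive values up to 0.76, and the lowest value is −0.33 between Lrat and Rdh11.

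For each gene the 3 most like genes by this centred r were sought among 10947 genes with a mean of at least 1 FPKM, as a description. Lrat was most like Plekhm3 (0.95), Tmem127 (0.94) and Zhx3 (0.94). Retsat was most like Cyp4a32 (0.92), Pam16 (0.92) and Cyp4a10 (0.89), the first and last of which encode fatty acid hydroxylases. Rdh7 was most like Sfxn2 (0.93), Gne (0.93) and Upb1 (0.92), and Rdh11 most like Dut (0.93), Hint3 (0.93) and Hmgcs1 (0.90), an enzyme of cholesterol synthesis. Dhrs3 was most like Atxn1 (0.96), Nipal3 (0.95) and Pcyox1 (0.95). Aldh1a1 was most like L3hypdh (0.96), Pon1 (0.95) and Apoc4 (0.95), and Aldh1a7 most like Aspa (0.93), Abhd6 (0.91) and Bckdhb (0.89). Cyp26a1 was most like Adssl1 (0.94), Ypel2 (0.94) and Nr0b2 (0.91), which encodes a nuclear receptor without a DNA-binding domain. Rarb was most like Mrpl21 (0.93), 1810010H24Rik (0.88) and Arl5b (0.85). None of these 27 genes is another of the 9. For Lrat control mouse 1 (9.67 FPKM, next 16.98) and for Retsat control mouse 6 (188 FPKM, next 109.1) stood far from their group. The likeness of these genes rests much on those mice and was not computed without them.

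Other genes of retinoid handling were taken from a list of 65, of which 55 were in the table. Of these 19 were higher in the PZH group, 9 were lower and 27 did not pass the limma test, which is 34.5% higher and 16.4% lower, read against the 12.7% and 32.1% of all genes. The median difference was 0.10. In 17 of the 55 the groups did not overlap, read against 24.3% of all genes. After median-ratio scaling 22 were higher and 6 lower, read against 19.8% and 19.3%. The genes not listed include Crabp1, which encodes a cellular retinoic acid-binding protein, and Rdh18-ps.

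**Figure D5:**
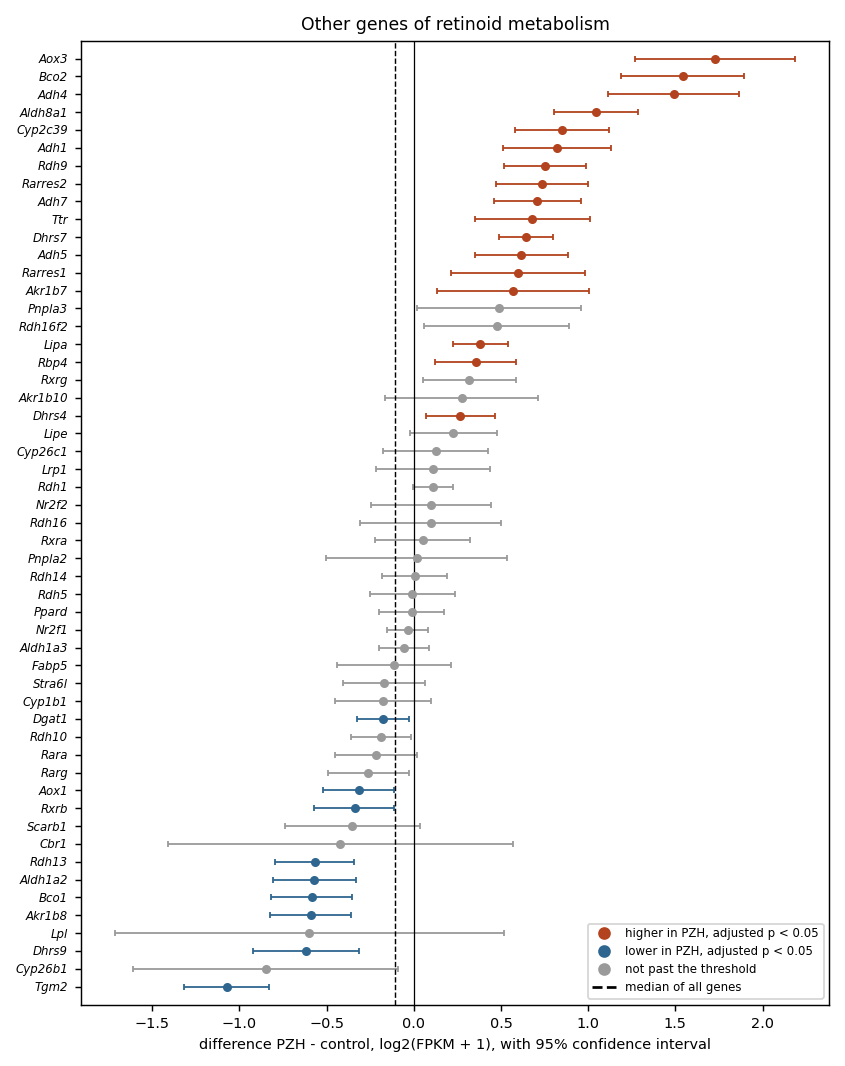
Difference between the groups (PZH minus control, log2(FPKM + 1)) of 53 of the other retinoid genes with 95% confidence intervals, n = 6 mice per group, in red for 17 genes called higher and in blue for 9 called lower at a limma adjusted p under 0.05. The differences run from −1.07 for Tgm2 to 1.73 for Aox3, and the dashed line is the median of all genes at −0.11.

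Among the carriers of retinol, Rbp4, which carries retinol in blood, measured 1925 to 2497 FPKM over the PZH mice against 1464 to 2310 over the control mice (0.36, SE 0.11, limma adjusted p = 0.0164). Ttr, whose protein travels with it, measured 3094 to 5043 and 1823 to 3375 FPKM (0.68, SE 0.15, limma adjusted p = 0.00311). Both of these carriers were higher in the PZH group, and the groups overlapped in each. 

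Of the enzymes that form retinal, the 4 listed alcohol dehydrogenases were all higher in the PZH group, and in none did the groups overlap. Adh1, the main one of the liver, measured 926 to 1252 FPKM in the PZH mice against 381 to 741 in the control mice (0.82, SE 0.14, limma adjusted p = 0.000543). Adh4 measured 133 to 168 and 33.98 to 78.4 FPKM (1.49, SE 0.17, limma adjusted p = 4.4e-05), and the differences of Adh7 and Adh5 were 0.71 and 0.62. The short-chain enzymes of the list, not all of which form retinal, differed in both directions. Among those with the largest differences, Rdh9 (0.75) and Dhrs7 (0.64) were higher and Dhrs9 (−0.62) was lower. The carotenoid-cleaving enzymes moved in opposite directions. Bco2, which cuts carotenoids off centre, measured 6.20 to 9.22 FPKM in the PZH mice against 1.35 to 3.49 in the control mice (1.54, SE 0.16, limma adjusted p = 2.7e-05). Bco1, which splits beta-carotene into retinal, measured 4.04 to 6.99 and 8.21 to 10.1 FPKM (−0.59, SE 0.11, limma adjusted p = 0.000788).

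Of the enzymes that oxidize retinal, Aldh8a1 was higher (74.1 to 101 FPKM in the PZH mice against 32.7 to 51.3 in the control mice, 1.04, SE 0.11, limma adjusted p = 2.8e-05), and so was the aldehyde oxidase Aox3 (101 to 130 and 20.9 to 63.9 FPKM, 1.73, SE 0.21, limma adjusted p = 6.1e-05). The other listed aldehyde oxidase, Aox1, was lower (−0.32, limma adjusted p = 0.0156), but not after median-ratio scaling (limma adjusted p = 0.232). Aldh1a2, the retinal dehydrogenase of mesenchymal cells, was lower at a very low level (0.447 to 0.712 and 0.747 to 1.86 FPKM, −0.57, SE 0.11, limma adjusted p = 0.00110). The aldo-keto reductases, which can reduce retinal, differed in direction, with Akr1b8 lower (−0.59) and Akr1b7 higher (0.57). Akr1b7 lost its call when any of 7 mice was left out (PZH mice 1, 3, 4 and 6 and control mice 3, 4 and 5, limma adjusted p up to 0.0725).

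Of the enzymes that break down retinoic acid, Cyp2c39 was higher (1.09 to 2.46 FPKM in the PZH mice against 0.262 to 0.691 in the control mice, 0.85, SE 0.12, limma adjusted p = 0.000186). Cyp26b1, the sister gene of Cyp26a1, measured 1.18 to 10.8 and 6.83 to 15.4 FPKM, and its difference of −0.85 (SE 0.35, limma adjusted p = 0.0655) did not pass. Of the receptors, Rara (−0.22, limma adjusted p = 0.126) and Rxra (0.05, limma adjusted p = 0.782) did not pass. Rxrb, which was chosen after its values were seen, was lower (−0.34, limma adjusted p = 0.0195), but not after median-ratio scaling (limma adjusted p = 0.159). Of genes known to respond to retinoic acid, Rarres2 (0.73) and Rarres1 (0.60) were higher, and Tgm2, a transglutaminase, was lower (54.4 to 72.5 FPKM in the PZH mice against 107 to 162 in the control mice, −1.07, SE 0.11, limma adjusted p = 2.7e-05).

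In pieces of whole liver, fewer cells of a type and less RNA per cell cannot be told apart, so markers of the cell types are given beside these differences. Their counts are read against 12.7% of all genes higher and 32.1% lower as deposited, and 19.8% and 19.3% after median-ratio scaling. Alb, the defining transcript of hepatocytes, was abundant in every mouse of these labelled livers and made up 10.2% to 12.7% of the summed FPKM in the PZH mice against 5.54% to 8.86% in the control mice. Of 11 listed hepatocyte markers PZH mice had 6 higher and 1 lower, and 9 higher and 0 lower after median-ratio scaling. The lower marker was Hnf4a (−0.30, limma adjusted p = 0.00937), which did not pass after that scaling (limma adjusted p = 0.25). Alb (0.68, limma adjusted p = 0.000697) and Cps1 (0.85, limma adjusted p = 0.000335) were higher. As deposited, Apoa1 (0.28, limma adjusted p = 0.0833) and Apob (0.13, limma adjusted p = 0.244) did not pass. After that scaling both passed (Apoa1 0.47, limma adjusted p = 0.0134, and Apob 0.32, limma adjusted p = 0.0270). The summed FPKM of the 11 markers was 38940 to 53220 in the PZH mice against 22380 to 34400 in the control mice. Most of this sum was Alb, which alone measured 33360 to 46360 and 18020 to 29480 FPKM. The sums of the lists below are likewise weighted towards their most abundant genes. The part of this in the higher levels of Rdh7 and Aldh1a7 was not tested.

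Of the 18 markers of hepatic stellate cells other than Lrat, PZH mice had 7 higher and 3 lower (9 and 2 after median-ratio scaling), with 289.8 to 348.8 and 246.4 to 341.8 summed FPKM. Reln was higher (0.98, limma adjusted p = 0.00123), and Ecm1 (−0.37) and Colec11 (0.49) did not pass. Hand2 did not pass as deposited (0.22, limma adjusted p = 0.111) but passed after that scaling (0.34, limma adjusted p = 0.0141). Of 12 myofibroblast markers 2 were higher and 4 lower (4 and 4 after median-ratio scaling), with 111.8 to 191.5 and 105.4 to 177.3 summed FPKM. The contractile genes Acta2 (−0.92, limma adjusted p = 0.0123) and Tagln (−1.38, limma adjusted p = 4e-05) were lower. Of the collagens, Col1a1 (0.18) did not pass, and Col3a1, which was chosen after its values were seen, was higher (0.62, limma adjusted p = 0.0146). Col1a2 did not pass as deposited (0.40, limma adjusted p = 0.164) but passed after that scaling (0.59, limma adjusted p = 0.0395). Timp1 (−2.13, limma adjusted p = 7.2e-06) and Lox (−0.57, limma adjusted p = 0.00752), likewise chosen after their values were seen, were lower. The stellate and myofibroblast lists thus moved in both directions, and their part in the values of Lrat, Dhrs3 and Rarb was not tested. As a description over the 12 mice, the centred r of Dhrs3 with the 16 stellate markers of at least 1 FPKM in the mean ran from −0.51 to 0.81 with a median of 0.47, and that of Lrat from −0.03 to 0.72 with a median of 0.42. These were the highest medians of the 9 genes. The others ran from −0.29 for Aldh1a7 to 0.29 for Cyp26a1, with 0.21 for Rarb. Much of the spread of Lrat comes from control mouse 1 (9.67 FPKM, where the next control mouse measured 16.98). The r of Lrat with the stellate markers was not computed without that mouse.

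Of 10 macrophage markers 5 were higher and 1 lower (7 and 0 after median-ratio scaling), with 403 to 609 summed FPKM in the PZH mice against 340.5 to 462.8 in the control mice. Vsig4 was higher (0.57, limma adjusted p = 0.00290), and Timd4 (−0.20) did not pass. Clec4f was higher (0.60, limma adjusted p = 0.0251) but not without PZH mouse 3 (limma adjusted p = 0.0548). Cd5l did not pass as deposited (0.07, limma adjusted p = 0.604) but passed after that scaling (0.26, limma adjusted p = 0.0475). Of 8 sinusoidal endothelial markers none was higher and 2 were lower (1 and 1 after median-ratio scaling), with 116 to 152 and 131 to 147 summed FPKM. Lyve1 was lower (−0.62, limma adjusted p = 0.000634), and Stab2 (0.06), Stab1 (−0.08) and Clec4g (−0.02) did not pass. Of 6 cholangiocyte markers 1 was lower (1 higher and 1 lower after median-ratio scaling), with 67.4 to 134 and 97.4 to 162 summed FPKM. The lower gene was Sox9 (−1.64, limma adjusted p = 5e-06), and Krt7 (−0.04) and Krt19 (−0.04) did not pass. Epcam, at 0 in 1 control mouse, did not pass as deposited (0.30, limma adjusted p = 0.113). It passed after that scaling (0.37, limma adjusted p = 0.0457).

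Genes of the circadian clock also differed between the groups. Of 16 such genes PZH mice had 9 higher and 3 lower on either scale, with 117 to 169 summed FPKM against 85.2 to 117. Over all genes 12.7% were higher and 32.1% lower as deposited, and 19.8% and 19.3% after median-ratio scaling. Arntl was lower (−0.75, limma adjusted p = 0.00646), and Clock (−0.19), Npas2 (−0.47) and Per1 (−0.65) did not pass. The 9 higher genes included Dbp (2.73, limma adjusted p = 2.2e-05) and Per3 (1.88, limma adjusted p = 1.3e-05), which were chosen after their values were seen. The hours at which the mice were killed are not given in the sources used here, and the part of the clock in the retinoid differences was not tested.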

How the data were processed

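RNA from the livers of 12 mice was depleted of ribosomal RNA and made into strand-specific libraries, which the authors sequenced with reads of 150 bases. The authors trimmed reads with Trimmomatic, mapped them with HISAT2 to GRCm38 and assembled transcripts with StringTie and Ensembl release 95. They deposited FPKM per transcript and mouse, which is divided by transcript length and library size on a linear scale and is not a count.

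Transcripts were assigned to genes with GENCODE M21 (29876 of 29883 matched) and summed. The sums were put on the log2(FPKM + 1) scale without a filter and compared between all 6 PZH and 6 control mice with limma 3.58.1 in R 4.3.3, with default variance moderation and Benjamini-Hochberg adjustment over 14188 genes or 29883 transcripts. Single values were compared by exact permutation tests and correlations by permutation, in Python 3.11.15 with pandas 2.3.3, numpy 2.4.6 and scipy 1.17.1. Sequences were aligned with biopython 1.88 and figures drawn with matplotlib 3.10.9. The alternatives tried were 0.1 as the pseudocount, only genes with a mean FPKM of 1 or more, a median-ratio scale factor, equal sums, a mean-variance trend, no moderation, a replicate block and each mouse left out. On simulated data over 14188 genes, 99% of 200 genes changed by 1.5 on the log2 scale were recovered, and 16 unchanged genes were called.

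Depth, read from the steps of low values, was 27.6 to 42.8 M fragments (median 30.3) in the PZH group and 26.8 to 35.5 M (median 30.1) in the control group. Of the low values 5.23% to 6.66% lay on whole multiples of a step (within 0.02 steps, where even spacing gives 4%), so counts were not recovered and the precision is that of the spread between mice.

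The 9 genes and all gene lists were chosen with earlier results of these data known. Named were all 9 genes and their transcripts, the 20 called genes of the retinoid list with the largest differences together with Rbp4, Adh1, Rara, Rxra, Cyp26b1, Aldh1a2 and Crabp1, the first 4 genes of each marker list, and the 3 genes most like each of the 9. Some genes that the rule gave are counted but not reported here. The search for exons of other genes over the 9, which named Top2b, and the tests of the 36 pairs were added after seeing the data. So was the naming of Rxrb, Aox1, Hnf4a, Col3a1, Timp1, Lox, Dbp and Per3. The table of lncRNA transcripts listed none within 10000 bases of the 9 genes.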

Additional observations from a re-analysis of the deposited data

Results flagged for a closer look

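In 2 of 28 groups of 6 values tested (the 9 gene levels and the 5 shares of the leading transcript, in each group), 1 mouse stood far from the others by Dixon's test, which flags about 1 in 20 groups by chance. Lrat measured 9.666 FPKM in control mouse 1, where the next mouse measured 16.98, a gap of 0.747 of the range of the group. Retsat measured 188.1 FPKM in control mouse 6, where the next mouse measured 109.1, a gap of 0.719 of the range. Control mouse 1 was also the lowest of its group at 7 of the 9 genes. Retsat was lower in the PZH group with and without control mouse 6, and Lrat did not pass with or without control mouse 1.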

How the results depend on the processing

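Over 19 alternatives for each of the 9 genes (171 values), no difference changed sign and none of the 4 calls was lost. In 166 values the call was as reported, and in 5 a gene that had not passed did so: Lrat and Aldh1a1 after median-ratio scaling, Aldh1a1 without PZH mouse 2 and without control mouse 6, and Cyp26a1 without control mouse 3. The cause was not tested. The count of genes called was 4 in all but these settings, with 5 in the settings without a mouse and 6 after median-ratio scaling. The count of genes past 2-fold, 0 as deposited, was 2 after median-ratio scaling and 0 to 1 when 1 mouse was left out. With the mouse number as a replicate block 4 genes, 6 transcripts and 27 of the other retinoid genes passed, and no call of the 9 genes changed. The labels do not say whether same-numbered mice were paired. Over genes with a mean of at least 1 FPKM, the deviations of same-numbered mice correlated between −0.078 and 0.093. This shows no pairing across these genes as a whole but cannot exclude one that acts on some of them. Transcripts called ranged from 4 after median-ratio scaling to 6, and the other retinoid genes called from 25 to 31. Depth was read from the steps of FPKM and not from counts, so no counting error can be given for low values such as those of Rarb.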
